A study of Mus musculus with 21 samples.

Results

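Growing axons end in a growth cone, a motile tip in which membrane, actin filaments and microtubules are rebuilt as the axon extends. Proteins such as GAP-43, BASP1 and the MARCKS family sit at the inner face of the growth cone membrane and bind calmodulin and acidic lipids. Doublecortin stabilizes microtubules, stathmins bind free tubulin and favor microtubule disassembly, and collapsin response mediator proteins (CRMPs) couple guidance cues to the cytoskeleton. In the inner ear, spiral ganglion neurons (SGNs) send one process to the hair cells (HCs) and another to the brainstem, and these processes grow before birth and are refined after it.

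A set of 10 genes of this machinery was followed, chosen by name as known genes of axon outgrowth, with earlier results of these data known. They are *Gap43*, *Basp1* and *Marcksl1* for the membrane proteins, *Dcx* for doublecortin, *Stmn1*, *Stmn2*, *Stmn3* and *Stmn4* for the stathmins, and *Dpysl3* and *Dpysl5* for 2 of the CRMPs. These 10 genes are 10 of the 52550 genes in the count table. Each symbol matched 1 gene, and all 10 passed the limit on low counts in the fit of the SGN libraries (15113 genes) and in that of all libraries (17531 genes).

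RNA-Seq was performed on 21 libraries in 7 groups of 3 replicates, all from mice labelled as C57BL/6. SGNs of 5 ages, E15.5 and P1, then P8, P14 and finally P30, came from *ShhCre/+; Rosa26-CAG-loxp-stop-loxp-tdTomato/+* mice, in which Cre made under the *Shh* locus turns on tdTomato in the ganglion, and each SGN library held between 69 and 195 picked cells. HCs were collected at P12 from *Atoh1-CreER+* mice with 1 copy of the same reporter, with about 1200 cells per library from cochlear and vestibular organs together. Glial cells were collected at P8 from *vGlut3-iCreER/+* mice, again with 1 copy of this reporter, with 86 to 125 cells per library from the cochlear ganglion area, since this Cre line also marks inner hair cells elsewhere in the cochlea. The mice for HCs and for glial cells had received tamoxifen soon after birth, and those for SGNs had not. All groups thus carried this reporter and differed in the Cre that activated it. The labels describe all cells as picked by hand, while the methods of the study describe the HCs as sorted by FACS. Nothing says that the replicates came from separate animals, so p-values measure the spread between these samples, which may be technical.

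Libraries held from 10368240 to 37287489 counts on genes, so 3 counts, the limit that a count of 0 allows, equaled 0.0805 to 0.289 CPM (counting error only, with 1 count per fragment). Levels are given as TPM, the count divided by the gene length and then set to a common total per library. This lets genes be compared per length. Overlap and order of libraries are stated in TPM, while the tests used counts scaled between libraries with TMM factors. In CPM scaled with TMM, libraries that overlap in TPM can lie apart, and the reverse. The 4 SGN markers summed to between 101 and 659 TPM in the 15 SGN libraries, the 5 HC markers to between 2387 and 2810 TPM in HCs, and the 3 glial markers to between 496 and 629 TPM in glial cells. Glial replicate 1 held 148.9 TPM of 4 general neuron markers against 21.7 and 10.6 TPM in glial replicates 2 and 3. Myelin markers of Schwann cells summed to between 775 and 1397 TPM in P8 SGNs and to between 6.96 and 218 TPM in P30 SGNs. Blood markers reached 178 TPM in 1 library of E15.5 and at most 33.9 TPM in the others, and connective tissue markers reached at most 151 TPM in SGNs. The labels name no batch. Cell type cannot be told apart from the Cre line and the tamoxifen that marked the cells. Except for P8 SGNs against P8 glial cells, it also cannot be told apart from age. HCs further differed in cells per library and, by the methods of the study, in the way of collection.

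From E15.5 to P30, the growth cone genes went down in SGNs, with *Stmn2* and *Stmn3* as the exceptions. The other 8 genes fell by between 2.55 and 6.40 on the log2 scale, *Stmn3* rose by 1.53, and *Stmn2* had -0.45, which was below the 2-fold limit. Together the 10 genes summed to between 1565 and 2790 TPM at E15.5, between 2563 and 3669 TPM at P1, and between 575 and 915 TPM at P30. Without *Stmn2* and *Stmn3*, the sum went from between 1878 and 2782 TPM at P1 to between 78.8 and 199 TPM at P30. A gene was called between ages when limma-voom gave a Benjamini-Hochberg adjusted p under 0.05 and a change over 2-fold, and 34.6% of the 15113 genes tested were called between E15.5 and P30. Among the 10 growth cone genes, 9 were called, 8 of them lower and 1 higher at P30, and their median log2 fold change was -3.34 against -0.01 over all genes tested. Of 4 general neuron markers, *Snap25*, a protein of synaptic vesicle release, was called over the same ages (4.86, SE 0.15), while *Tubb3* (0.39), *Rbfox3* (0.16) and *Elavl4* (-0.20) were not. In bulk samples, fewer cells that express a gene and less of its RNA per cell cannot be told apart.

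**Figure D1:**
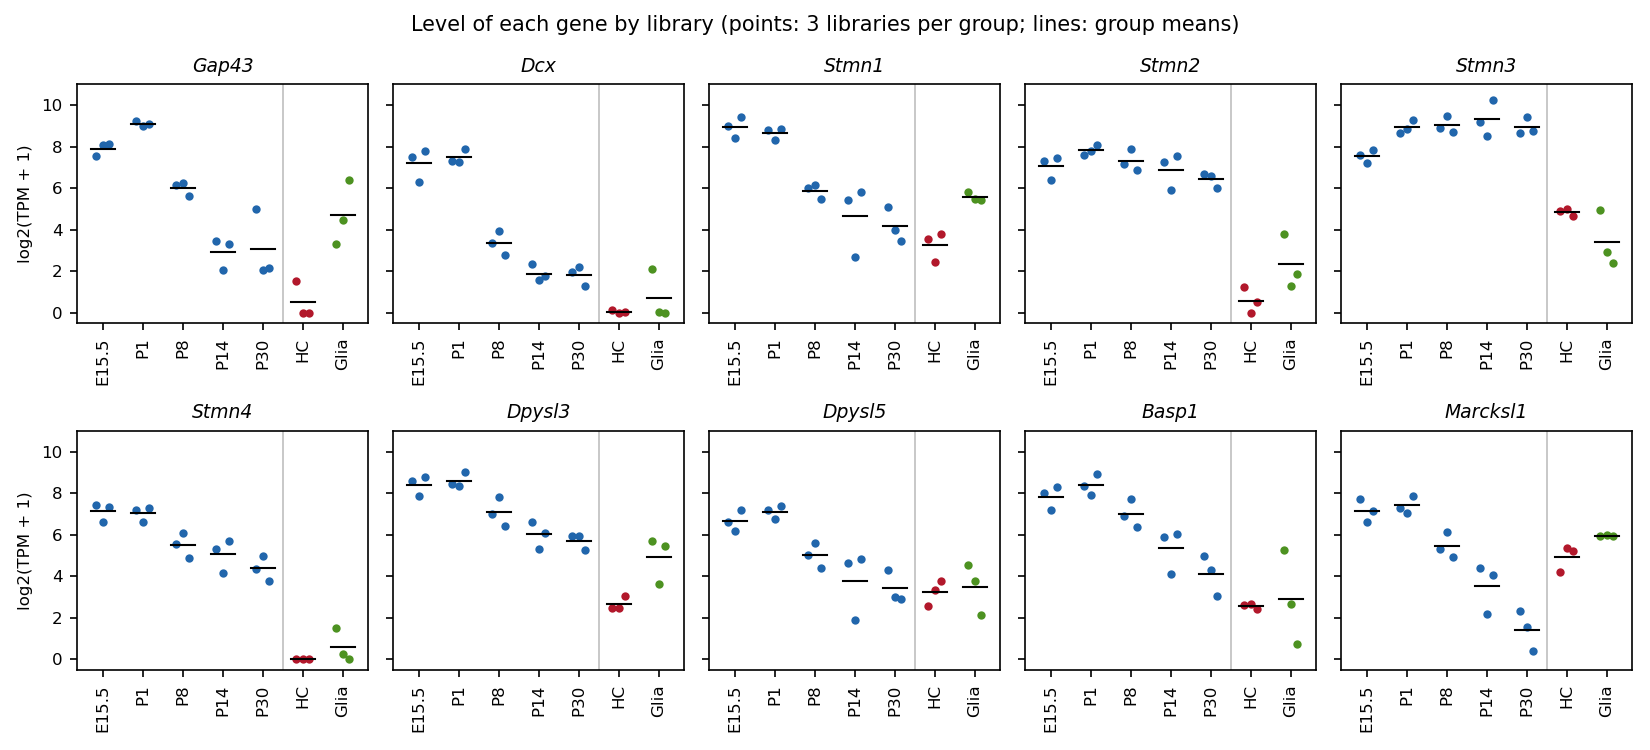
Level of each of the 10 genes in every library as log2(TPM + 1), for SGNs at 5 ages, P12 HCs and P8 glial cells. Each point is 1 library (3 per group) and each line is the group mean of the log values. Most genes fell from P1 onward, *Stmn2* and *Stmn3* stayed high in all SGN libraries, and *Stmn4* had no count in the 3 HC libraries.

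Among the membrane proteins, *Gap43*, whose product is a main protein kinase C substrate of growth cones, was the member with the highest mean at P1 (550 TPM ± 44.3, SD, n = 3). Its gene lies at chr16:42248442-42340651 on the minus strand (GRCm38). It measured 185, 266 and 275 TPM at E15.5, 598, 511 and 540 TPM at P1, 70.2, 74.3 and 47.8 TPM at P8, 9.81, 3.12 and 9.003 TPM at P14, and 30.6, 3.13 and 3.46 TPM at P30. In TPM, the 3 libraries of P1 lay above all others, and those of P8 lay between the embryonic and the P14 libraries. The P30 libraries overlapped with those of P14, with replicates 2 and 3 at P30 inside the P14 range. Replicate 1 at P30 stood well above the other replicates. From E15.5 to P30, *Gap43* fell by 4.66 on the log2 scale (SE 0.70, adjusted p = 6.94e-05). The change was -6.04 without P30 replicate 1 and -3.91 without P30 replicate 2. Replicate 1 also held the most Schwann cell myelin marker RNA of the P30 libraries (218 TPM against 63.2 and 6.96 TPM), and its part in the *Gap43* value was not tested.

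*Basp1* encodes brain acid soluble protein, which like GAP-43 is enriched at the growth cone membrane, and its gene lies at chr15:25363277-25413764 on the minus strand. It measured 257, 147 and 314 TPM at E15.5, 326, 242 and 478 TPM at P1, 117, 213 and 81.6 TPM at P8, 58.9, 16.3 and 63.9 TPM at P14, and 30.6, 18.7 and 7.35 TPM at P30. Levels at E15.5 and P1 overlapped, P8 replicate 2 reached into the embryonic range, and all P14 libraries were below all P8 libraries. The change from E15.5 to P30 was -3.54 on the log2 scale (SE 0.29, adjusted p = 1.49e-07), and -4.13 without P30 replicate 1.

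*Marcksl1* encodes a small MARCKS-like protein that binds actin filaments and calmodulin, and its gene lies at chr4:129513581-129515985 on the plus strand. It measured 209, 96.4 and 142 TPM at E15.5, 158, 132 and 233 TPM at P1, 39.3, 69.6 and 29.5 TPM at P8, 19.9, 3.47 and 15.6 TPM at P14, and 3.96, 1.91 and 0.296 TPM at P30. Its mean was lower at each age after P1 than at the one before, and among these neighbors only the P14 and P30 libraries overlapped in TPM. From E15.5 to P30, *Marcksl1* fell by 6.40 on the log2 scale (SE 0.69, adjusted p = 2.39e-06), which was the largest fall among the 10 genes. The value was -7.35 without P30 replicate 1 and -5.59 without P30 replicate 3. Peak and lowest age means of *Marcksl1* differed 84.9-fold in TPM, against 75.2-fold for *Gap43* and 18.5-fold for *Basp1*.

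*Dcx* encodes doublecortin, a microtubule-binding protein that is widely used as a marker of newly formed neurons. The gene lies at chrX:143855842-143933311 on the minus strand. *Dcx* measured 178, 77.9 and 225 TPM at E15.5, 160, 151 and 237 TPM at P1, 9.27, 14.6 and 5.84 TPM at P8, 4.06, 1.98 and 2.37 TPM at P14, and 2.90, 3.54 and 1.40 TPM at P30. The 6 libraries of E15.5 and P1 shared one range, the P8 libraries lay far below it, and the P14 and P30 libraries shared a lower range. At P8, the mean was 5.42% of the P1 mean, which was the steepest drop of the 10 genes by P8. From E15.5 to P30, *Dcx* fell by 5.71 on the log2 scale (SE 0.26, adjusted p = 8.07e-10).

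The 4 stathmins followed different courses. *Stmn1* encodes stathmin, the cytosolic family member that dividing cells also use, while *Stmn2* (SCG10), *Stmn3* (SCLIP) and *Stmn4* (RB3) encode neuronal members that carry a membrane anchor. *Stmn1* lies at chr4:134468320-134473843 on the plus strand, and measured 512, 346 and 691 TPM at E15.5, 449, 315 and 458 TPM at P1, 63.9, 71.2 and 43.3 TPM at P8, 42.6, 5.48 and 55.9 TPM at P14, and 32.7, 14.9 and 10.2 TPM at P30. In TPM, the embryonic and P1 libraries overlapped, all 3 P8 libraries were below them, and P14 replicate 2 fell below every P30 library. In CPM scaled with TMM, the means were 700 ± 56.8 at E15.5 and 405 ± 73.4 at P1 (SD, n = 3). Between E15.5 and P30, *Stmn1* fell by 4.59 on the log2 scale (SE 0.37, adjusted p = 1.20e-07), and the value was -5.18 without P30 replicate 1. In the annotation, 18.9% of the 50-base stretches of *Stmn1* transcripts also occurred in *Gm11223* or *Gm23634*, so reads of these genes could have been shared and the level of *Stmn1* is uncertain to that extent.

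*Stmn2*, at chr3:8509360-8561606 on the plus strand, varied least with age. It measured 156, 84.7 and 173 TPM at E15.5, 194, 221 and 271 TPM at P1, 141, 235 and 116 TPM at P8, 151, 59.7 and 184 TPM at P14, and 101, 95.8 and 64.4 TPM at P30. All neighbors in the order of the 5 age means overlapped in TPM, although every P1 library lay above every E15.5 library. The peak mean was 2.62 times the lowest in TPM. In CPM scaled with TMM, the means ran from 406 ± 76.6 at P30 to 662 ± 90.0 at P1 (SD, n = 3). The change from E15.5 to P30 was -0.45 on the log2 scale (SE 0.15, adjusted p = 0.0275), under the 2-fold limit.

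*Stmn3*, at chr2:181306459-181314500 on the minus strand, was the 1 gene that rose. It measured 194, 147 and 228 TPM at E15.5, 408, 464 and 616 TPM at P1, 480, 703 and 420 TPM at P8, 582, 361 and 1226 TPM at P14, and 406, 680 and 431 TPM at P30. The 3 embryonic libraries were below all postnatal SGN libraries, and the postnatal ages overlapped with one another in TPM. From E15.5 to P30, *Stmn3* rose by 1.53 on the log2 scale (SE 0.25, adjusted p = 0.000146).

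*Stmn4*, at chr14:66344296-66361680 on the plus strand, also fell. It measured 174, 98.5 and 162 TPM at E15.5, 143, 98.1 and 156 TPM at P1, 46.3, 66.6 and 28.4 TPM at P8, 38.3, 16.8 and 51.3 TPM at P14, and 19.6, 30.8 and 12.7 TPM at P30. In TPM, the libraries of E15.5 and P1 overlapped and all lay above the later ages, which overlapped with their neighbors. In CPM scaled with TMM, the means were 198 ± 23.0 at E15.5, 130 ± 21.7 at P1, 59.8 ± 5.66 at P8 and 40.3 ± 6.46 at P14 (SD, n = 3). The change from E15.5 to P30 was -2.67 on the log2 scale (SE 0.21, adjusted p = 9.93e-08).

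The make-up of the stathmin messages was compared as shares of their summed TPM within each library, which do not depend on the scaling between libraries but do depend on the gene lengths in the deposited table (1136 bases for *Stmn3*, 1922 for *Stmn1* and 5602 for *Stmn2*). *Stmn1* made up 49.4% to 55.1% at E15.5, 28.7% to 37.6% at P1, 6.62% to 8.73% at P8, 1.24% to 5.24% at P14 and 1.82% to 5.84% at P30. *Stmn3* made up 18.2% to 21.7% at E15.5, 34.1% to 42.3% at P1, 65.3% to 69.1% at P8, 71.5% to 81.5% at P14 and 72.6% to 83.2% at P30. Per length, the leading stathmin message was thus *Stmn1* in all 3 libraries of E15.5 and *Stmn3* in all libraries of P8, P14 and P30, with no overlap in the shares of either gene between E15.5 and P1 or between P1 and P8. By share of counts, without division by length, *Stmn1* also led in the 3 libraries of E15.5, but *Stmn2* led in all 3 libraries of P1 and of P8 and in replicate 1 of P14 and of P30. *Stmn2* stayed between 11.7% and 21.9% in all 15 SGN libraries, and *Stmn4* went from between 12.9% and 16.8% at E15.5 to between 2.45% and 3.75% at P30. In glial cells *Stmn1* led with 55.3% to 85.7%, and in HCs *Stmn3* led with 65.0% to 87.7% of a sum that was far lower.

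**Figure D2:**
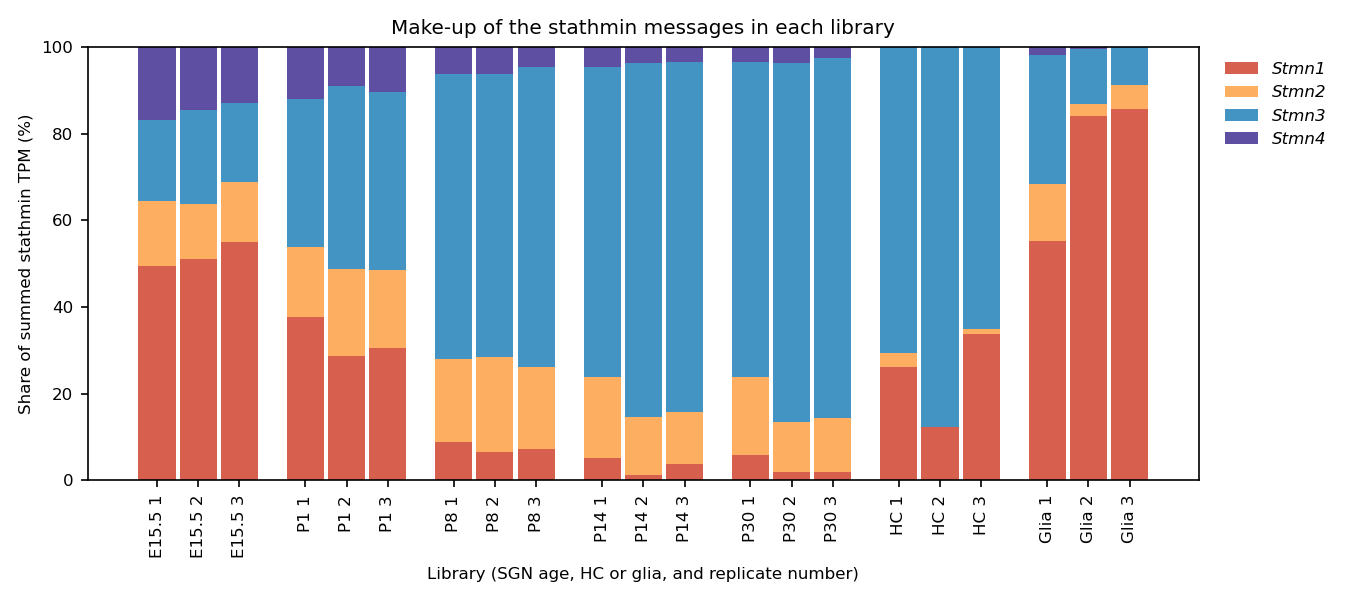
Share of each stathmin in the summed TPM of *Stmn1*, *Stmn2*, *Stmn3* and *Stmn4* in each of the 21 libraries, in percent. Each bar is 1 library, and bars are grouped by SGN age, HCs and glial cells. *Stmn1* led at E15.5 with 49.4% to 55.1%, and *Stmn3* led at P30 with 72.6% to 83.2%.

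The bases just upstream of the annotated start are shown for *Stmn3*, the gene that rose, and for *Marcksl1* and *Basp1*, both of which fell. The sequences are the 250 bases before the RefSeq start on GRCm38.p6, written 5′ to 3′ on the strand of the gene, at chr2:181314501-181314750 (minus strand), chr4:129513331-129513580 (plus strand) and chr15:25413765-25414014 (minus strand). Capitals mark matches on either strand to the GC box GGGCGG, the TATA box TATAAA, the CCAAT box CCAAT, or the E-boxes CAGCTG and CAGATG.
Stmn3: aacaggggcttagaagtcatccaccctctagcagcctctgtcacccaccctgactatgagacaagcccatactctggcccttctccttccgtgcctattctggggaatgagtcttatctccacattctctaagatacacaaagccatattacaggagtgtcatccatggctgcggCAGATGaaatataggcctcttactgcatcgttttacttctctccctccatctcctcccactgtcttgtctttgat
Marcksl1: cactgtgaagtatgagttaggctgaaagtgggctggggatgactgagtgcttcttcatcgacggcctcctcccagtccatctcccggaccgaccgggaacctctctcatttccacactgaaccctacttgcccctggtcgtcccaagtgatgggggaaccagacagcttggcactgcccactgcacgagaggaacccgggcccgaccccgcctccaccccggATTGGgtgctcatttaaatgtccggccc
Basp1: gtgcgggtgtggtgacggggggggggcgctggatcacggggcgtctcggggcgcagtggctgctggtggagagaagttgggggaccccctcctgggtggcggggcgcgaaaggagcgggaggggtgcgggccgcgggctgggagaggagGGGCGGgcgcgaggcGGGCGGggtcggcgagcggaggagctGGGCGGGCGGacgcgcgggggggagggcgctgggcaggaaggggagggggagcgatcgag
The *Stmn3* stretch held 48.8% G or C and 3 CpG pairs, with 1 match to CAGATG. The *Marcksl1* stretch held 60.4% G or C and 12 CpG pairs, with 1 match to CCAAT, and the *Basp1* stretch held 78.8% and 30 CpG pairs, with 4 matches to GGGCGG, the last 2 of which overlap. Over 32851 upstream stretches of the same length, the median was 52.4% G or C and 6 CpG pairs, and GGGCGG occurred in 32.7%, CCAAT in 33.8% and CAGATG in 14.4%. Upstream stretches were examined for 5 of the 10 genes, and the other 2 of these, *Dcx* and *Dpysl5*, also fell. The stretches before the RefSeq starts of *Dcx*, neither of which is the GENCODE start, held 44.8% and 41.6% G or C and 3 CpG pairs each, while that of *Dpysl5* held 62.8% and 17 CpG pairs. Genes that fell thus lay on both sides of *Stmn3* in base composition. These matches describe the letters and nothing was measured at them here.

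The remaining genes belong to the CRMP family. *Dpysl3* encodes CRMP4, which binds actin filaments and microtubules, and *Dpysl5* encodes CRMP5, which is expressed in the developing nervous system. *Dpysl3* measured 381, 231 and 435 TPM at E15.5, 345, 322 and 513 TPM at P1, 126, 229 and 84.9 TPM at P8, 98.2, 38.6 and 67.9 TPM at P14, and 59.97, 59.8 and 36.9 TPM at P30. *Dpysl5*, at chr5:30711564-30799375 on the plus strand, measured 96.8, 70.6 and 143 TPM at E15.5, 143, 106 and 167 TPM at P1, 31.9, 48.0 and 19.96 TPM at P8, 23.7, 2.65 and 27.2 TPM at P14, and 19.0, 7.05 and 6.53 TPM at P30. In TPM, both genes had overlapping levels at E15.5 and P1, lay lower in all 3 libraries of P8, and overlapped between neighboring ages from P8 on. In CPM scaled with TMM, P8 and P14 lay apart. Their means were 592 ± 47.6 and 263 ± 52.7 for *Dpysl3*, and 162 ± 12.4 and 66.8 ± 37.5 for *Dpysl5* (SD, n = 3). Between E15.5 and P30, *Dpysl3* fell by 2.55 on the log2 scale (SE 0.14, adjusted p = 3.40e-09) and kept 13.3% of its P1 mean in TPM. *Dpysl5* fell by 3.13 (SE 0.38, adjusted p = 7.49e-06), or by 3.72 without P30 replicate 1, and kept 7.84% of its P1 mean in TPM. The fitted log2 values from P1 to P30, -2.24 for *Dpysl3* and -3.08 for *Dpysl5*, were smaller falls than these shares in TPM.

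The fall was concentrated after P1. Between E15.5 and P1, 8.26% of all genes tested were called, and none of the 10 growth cone genes was. *Gap43* differed by 0.69 on the log2 scale (SE 0.31, adjusted p = 0.149). Each of its P1 libraries exceeded each E15.5 library in TPM, but not in CPM scaled with TMM. On that scale the means were 286 ± 140 at E15.5 and 442 ± 100 at P1 (SD, n = 3). Without E15.5 replicate 2, *Gap43* was called with 1.08 (adjusted p = 0.0344). *Stmn1* (-0.80), *Stmn4* (-0.59) and *Stmn3* (0.88) had adjusted p of 0.0334, 0.0265 and 0.0353 but stayed under 2-fold. At an unadjusted p under 0.05, 5 of the 10 genes differed between these ages, 2 higher and 3 lower at P1, against 28.3% of all genes tested. DESeq2 and edgeR's quasi-likelihood test also called none.

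Between P1 and P8, 7 of the 10 genes were called, all lower at P8, while 7.44% of all genes tested were called. *Dcx* fell by 3.84 (SE 0.18, adjusted p = 2.89e-09), *Gap43* by 2.71 (SE 0.35, adjusted p = 0.000123) and *Stmn1* by 2.37 (SE 0.28, adjusted p = 5.93e-05) on the log2 scale. *Dpysl5* fell by 1.70, *Marcksl1* by 1.54, *Stmn4* by 1.12 and *Dpysl3* by 1.08. *Basp1* had -0.97 (adjusted p = 0.00328), just short of 2-fold, *Stmn2* had -0.10 and *Stmn3* had 0.53. Without P1 replicate 1, *Stmn4* fell short of 2-fold with -0.98, and *Basp1* was called with -1.07 without P1 replicate 2 and with -1.03 without P8 replicate 2. It was also called with library size alone (-1.19) and with a CPM over 10 (-1.02). With edgeR's quasi-likelihood test, *Marcksl1* had an adjusted p of 0.0742. P8 SGNs held 775 to 1397 TPM of Schwann cell myelin markers against 63.0 to 197 TPM at P1, and the part of this RNA in the changes was not tested.

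Between P8 and P14, 0.536% of all genes tested were called, and 4 of the 10 growth cone genes were, all lower at P14. *Marcksl1* fell by 2.15 (SE 0.41, adjusted p = 0.0219), *Dcx* by 1.86 (SE 0.32, adjusted p = 0.0101), *Basp1* by 1.79 (SE 0.26, adjusted p = 0.00291) and *Dpysl3* by 1.17 (SE 0.15, adjusted p = 0.00122). *Gap43* had -3.36 with a wide error (SE 0.84, adjusted p = 0.0731), although its P8 and P14 libraries did not overlap. The *Marcksl1* call was lost without any 1 of the 6 libraries (adjusted p from 0.0581 to 0.104), and that of *Dcx* was lost without P14 replicate 3 (-1.59, adjusted p = 0.0592). The *Dcx* call was also lost with no limit on low counts (adjusted p = 0.307) and with all 21 libraries in the fit (adjusted p = 0.155), and the *Marcksl1* call with edgeR's quasi-likelihood test (adjusted p = 0.0934). *Gap43* was called by DESeq2 (-3.38, adjusted p = 0.00106), with quality weights and with only the compared groups in the fit. Leaving out 1 library gave between 2 and 3 called genes, and sample quality weights gave 7. Schwann cell myelin markers summed to 775 to 1397 TPM at P8 and to 223 to 866 TPM at P14. The part of this RNA in the changes was not tested.

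From P14 to P30, none of the 10 genes was called by limma-voom or edgeR's quasi-likelihood test, with 0.0596% of all genes tested called. At an unadjusted p under 0.05, *Marcksl1* (-2.48, SE 0.77, adjusted p = 0.378) and *Basp1* (-0.84, SE 0.34, adjusted p = 0.643) differed, both lower at P30, against 6.55% of all genes tested. DESeq2 called 1 gene, *Marcksl1* (-2.12, adjusted p = 0.00312). The other 8 genes had values between -0.36 and 0.72, with standard errors of up to 1.02 for *Gap43*. Over the whole postnatal span from P1 to P30, 8 of the 10 genes were called, all lower at P30, and 19.6% of all genes tested were called. *Stmn2* (-0.73) and *Stmn3* (0.66) stayed under 2-fold, although *Stmn2* was called when scaled by library size alone (-1.06, adjusted p = 2.2e-05). The value of *Gap43* (-5.35) was -6.71 without P30 replicate 1 and -4.59 without P30 replicate 2, and that of *Marcksl1* (-6.17) was -7.11 without P30 replicate 1 and -5.35 without P30 replicate 3. Comparisons of neighboring ages share the libraries of the age in between.

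**Figure D3:**
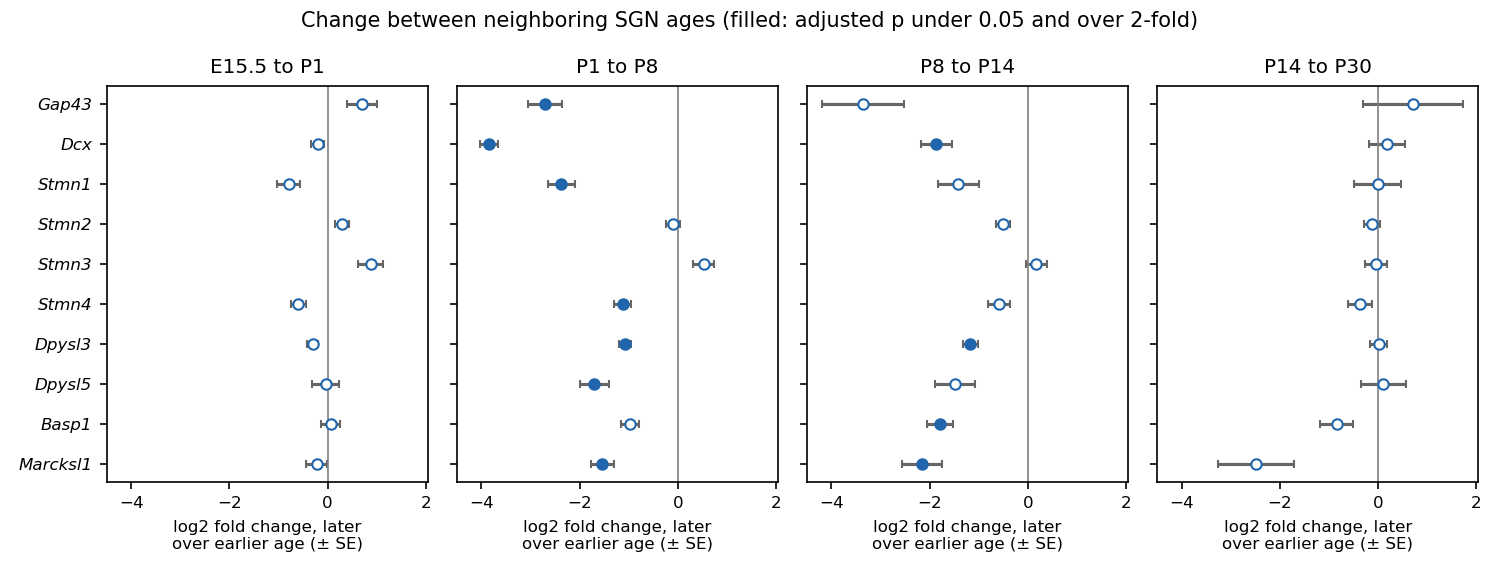
Log2 fold change of each gene between neighboring SGN ages, later over earlier, with standard errors from limma-voom (3 libraries per age). Filled points passed an adjusted p of 0.05 and a 2-fold change. None passed from E15.5 to P1, 7 passed from P1 to P8, 4 from P8 to P14 and none from P14 to P30.

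Whether the growth cone genes were particular to neurons of the ear was asked by comparing SGNs with HCs and glial cells, where a call needed an adjusted p under 0.01 and a 4-fold change. These comparisons share the SGN libraries with those between ages. In the mean of the 5 SGN ages against HCs, 9 of the 10 genes were called, all higher in SGNs, and 26.8% of all genes tested were called. The median log2 fold change of the 10 genes was 5.76 against 0.02 over all genes. For 7 genes, all 15 SGN libraries were above all 3 HC libraries, and the exceptions were *Stmn1*, *Dpysl5* and *Marcksl1*. Of all genes tested, 4.13% lay above HCs in this way.

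HCs held next to no message of 4 of the genes. *Stmn4* had no count in the 3 HC libraries, where 3 counts would equal 0.236 to 0.316 TPM. Against the larger of these limits per library, its mean was 458-fold higher in SGNs at E15.5 and 66.4-fold higher at P30. These folds hold for 1 count per fragment, and would be smaller where 1 fragment adds more than 1 count. *Dcx* had 6, 0 and 2 counts, *Gap43* had 14, 0 and 0 counts, and *Stmn2* had 38, 0 and 16 counts. The fitted log2 differences were 10.67 for *Dcx* (SE 1.38, adjusted p = 1.37e-06), 9.65 for *Gap43* (SE 1.76, adjusted p = 9.33e-05) and 10.71 for *Stmn2* (SE 1.16, adjusted p = 1.20e-07). These sizes depend on single HC libraries, with *Dcx* between 9.60 and 11.66, *Gap43* between 8.74 and 11.40, and *Stmn2* between 8.79 and 12.08 when HC replicates 1, 2 and 3 were left out in turn. Replicate 1, with the most counts of these 3 genes among the HC libraries, also held 218 TPM of Schwann cell myelin markers against 10.1 and 6.24 TPM in the others, and the part of this RNA was not tested.

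The other genes were present in HCs at lower levels. *Stmn3* measured 29.2, 31.4 and 24.6 TPM in HCs, *Dpysl3* 4.58, 4.62 and 7.27 TPM, and *Basp1* 5.03, 5.42 and 4.41 TPM. All 3 of these genes lay below every SGN library. *Dpysl5* (4.99, 8.96 and 12.7 TPM) and *Stmn1* (10.8, 4.39 and 12.8 TPM) overlapped with the lowest SGN libraries of P14 and P30. The differences of the SGN mean from HCs were 6.00 for *Dpysl3*, 5.51 for *Basp1*, 5.22 for *Stmn3*, 4.67 for *Stmn1* and 3.32 for *Dpysl5* on the log2 scale, each with an adjusted p of 7.02e-05 or less. *Marcksl1* was the exception, with 17.4, 40.3 and 35.8 TPM in HCs and 1.14 (SE 0.38, adjusted p = 0.0161) for the SGN mean. Its P30 libraries, at 0.296 to 3.96 TPM, were all below the HC libraries.

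At the ages closest to each other, P14 for SGNs and P12 for HCs, 7 of the 10 genes were called, all higher in SGNs, and 23.1% of all genes tested were called. *Gap43* (6.54, adjusted p = 0.0102), *Dpysl5* (1.70, adjusted p = 0.0515) and *Marcksl1* (-0.32, adjusted p = 0.646) were not called. *Gap43* was called by edgeR's quasi-likelihood test (4.74, adjusted p = 0.00371), by DESeq2 (4.41, adjusted p = 0.000501), with quality weights and with only the compared groups in the fit, so its size depends on the method. It was also called without HC replicate 1 (8.29, adjusted p = 0.00715) and *Dpysl5* without P14 replicate 2 (2.25, adjusted p = 0.00851). The call of *Stmn1* (2.71, adjusted p = 0.00490) was lost without P14 replicate 1 or 3 or without any 1 HC replicate, with values between 2.20 and 3.01. It was also lost with library size alone (1.97, adjusted p = 0.0346), with no limit on low counts (adjusted p = 0.0177) and with only the compared groups in the fit (adjusted p = 0.0119). Without HC replicate 1 or 2 the values of *Dcx* (7.92) were 8.91 and 6.86, and those of *Stmn2* (10.43) were 11.80 and 8.51.

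Against glial cells the genes split into 5 that were higher in SGNs and 5 that were not called, while 24.7% of all genes tested were called. *Dcx* (7.54, SE 1.25), *Stmn4* (7.46, SE 0.83), *Stmn3* (4.90, SE 0.67), *Stmn2* (4.57, SE 0.54) and *Basp1* (3.40, SE 0.68) were higher in the mean of the 5 SGN ages, with adjusted p of 0.000333 or less. In glial cells, *Dcx* measured 3.24, 0.0154 and 0 TPM, *Stmn4* 1.87, 0.203 and 0 TPM, *Stmn3* 30.0, 6.60 and 4.30 TPM, *Stmn2* 13.1, 1.46 and 2.69 TPM, and *Basp1* 37.0, 5.38 and 0.689 TPM. Glial replicate 1, the library with the most neuron marker RNA, was highest for each of these 5 genes. It was also the highest glial library for *Stmn1*, *Dpysl3* and *Dpysl5*, but not for *Gap43* or *Marcksl1*. The part of neuron RNA in these levels was not tested. Without glial replicate 1, the values were 10.51 for *Dcx*, 9.02 for *Stmn4*, 5.89 for *Stmn3*, 5.70 for *Stmn2* and 5.10 for *Basp1*, and *Dpysl3* was also called (2.32). Without glial replicate 2 they were 6.37 for *Dcx* and 3.90 for *Stmn2*, and without glial replicate 3 they were 5.28 for *Dcx*, 5.92 for *Stmn4* and 2.09 for *Basp1*, with *Dpysl3* called at 2.06. Glial replicates 2 and 3 left few counts of *Dcx* (2 and 0) and *Stmn4* (4 and 0), and edgeR's quasi-likelihood test gave 3.69 for *Dcx*, 5.88 for *Stmn4* and 2.37 for *Basp1*. *Basp1* was not called with sample quality weights (3.18, adjusted p = 0.0141).

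*Gap43*, *Stmn1*, *Marcksl1* and the CRMP genes were present in glial cells. *Gap43* measured 9.07, 20.97 and 82.5 TPM there, with the highest level in replicate 3, the library with the least neuron marker RNA. *Stmn1* measured 55.6, 43.8 and 41.8 TPM and *Marcksl1* 60.3, 63.0 and 60.6 TPM, both with little spread. *Dpysl3* measured 50.1, 11.4 and 42.3 TPM, and *Dpysl5* measured 22.0, 12.8 and 3.42 TPM. Relative to glial cells, the SGN mean differed by 0.99 for *Gap43* (SE 0.64, adjusted p = 0.209), 0.51 for *Stmn1* (SE 0.30, adjusted p = 0.170), 1.85 for *Dpysl3*, 1.29 for *Dpysl5* and -1.52 for *Marcksl1* (SE 0.26, adjusted p = 6.23e-05), the last 3 under 4-fold. Markers of dividing cells, which use *Stmn1*, summed to 201, 69.1 and 35.2 TPM in glial cells against 0.254 to 31.1 TPM in SGNs, and their part in the *Stmn1* level was not tested.

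At P8, the 1 age with both cell types, the same 5 genes were called, with 20.9% of all genes tested called. The differences were 7.19 for *Stmn4*, 6.67 for *Dcx*, 5.22 for *Stmn3*, 4.81 for *Stmn2* and 3.90 for *Basp1*, each higher in SGNs with adjusted p of 0.000268 or less. *Stmn1* differed by -0.04 (SE 0.35, adjusted p = 0.938), *Gap43* by 1.25 (SE 0.68, adjusted p = 0.147) and *Marcksl1* by -0.83 (SE 0.29, adjusted p = 0.0237). Without glial replicate 1 the 5 values were 8.75, 9.64, 6.21, 5.94 and 5.61, in the same order, and *Dpysl3* (1.82) was called with 2.28. Without glial replicate 2 the values were 5.49 for *Dcx* and 4.14 for *Stmn2*, and without glial replicate 3 they were 4.41 for *Dcx*, 5.66 for *Stmn4* and 2.59 for *Basp1*, with *Dpysl3* called at 2.03. The call of *Dcx* was lost with edgeR's quasi-likelihood test (2.80, adjusted p = 0.0428) and with sample quality weights (6.37, adjusted p = 0.0108), and that of *Basp1* was lost with only the compared groups in the fit (adjusted p = 0.0104). P8 SGN libraries held 17.1 to 39.9 TPM of glial markers, against 496 to 629 TPM in glial cells. Of Schwann cell myelin markers they held 775 to 1397 TPM, against 6878 to 9343 TPM in glial cells. The part of glial RNA in these differences was not tested.

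**Figure D4:**
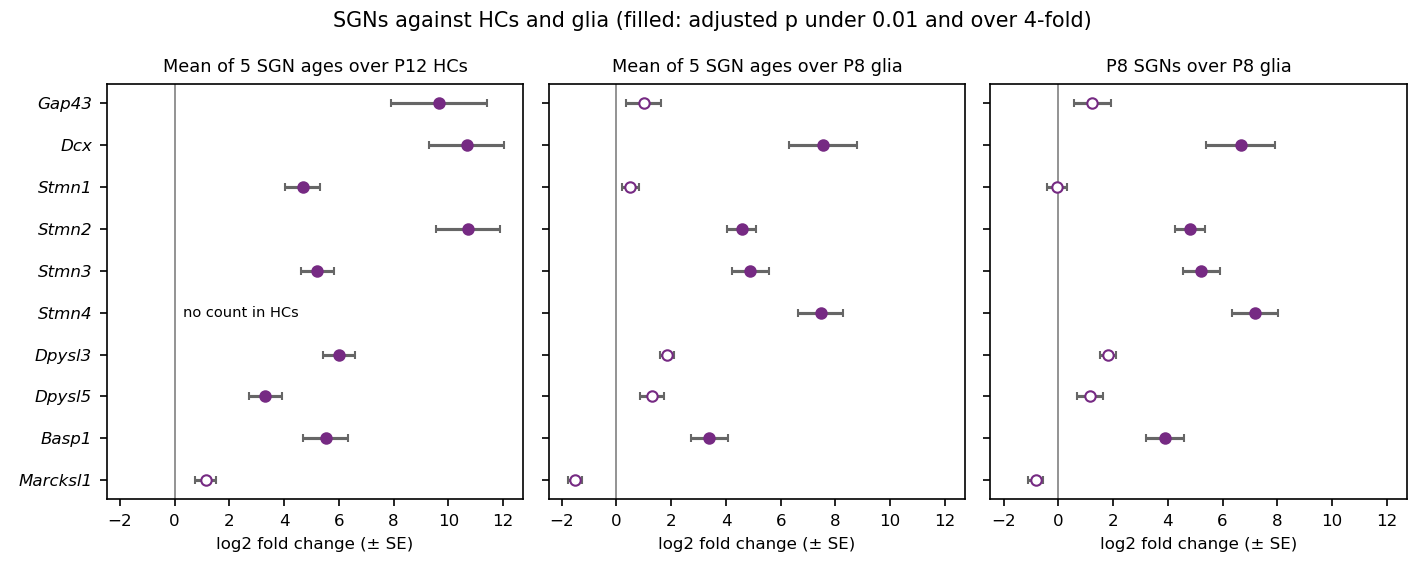
Log2 fold change of each gene in SGNs over HCs and over glial cells, with standard errors from limma-voom, for the mean of the 5 ages, and in P8 SGNs over P8 glial cells. Filled points passed an adjusted p of 0.01 and a 4-fold change. Against HCs all genes but *Marcksl1* passed, *Stmn4* included, which had no count in HCs and is not drawn there, and against glial cells 5 of 10 passed, for the mean of the ages and at P8 alike.

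Between HCs and glial cells, 6 of the 10 genes were called, all lower in HCs, with 24.4% of all genes tested called. *Stmn1* was lower by a log2 value of -4.16 (SE 0.70, adjusted p = 7.54e-05) and *Marcksl1* by -2.66 (SE 0.40, adjusted p = 2.46e-05). *Gap43* (-8.66), *Stmn2* (-6.14), *Dpysl3* (-4.15) and *Stmn4* (-4.13) were also called. Leaving out HC or glial replicates in turn moved *Gap43* between -10.41 and -7.76, *Stmn2* between -7.50 and -4.21, and *Dpysl3* to -4.75 without glial replicate 2. For *Stmn4*, which had no count in HCs, the fitted value depends on the prior count, and its call was lost without each of the other libraries but was kept without glial replicate 3. The *Stmn4* call was also lost under 5 of the other settings, and that of *Stmn2* with only the compared groups in the fit (adjusted p = 0.0170). *Dpysl5* and *Basp1* were called without glial replicate 3 (-2.65 and -3.43) and by edgeR's quasi-likelihood test (-2.17 and -3.15), which also called *Dcx* (-6.46, adjusted p = 0.00185, against -3.13 in the limma-voom fit). Over the settings other than leaving out a library, between 4 and 9 of the 10 genes were called.

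The order of the 7 groups by mean TPM also differed between genes. By mean, *Stmn2*, *Stmn3*, *Stmn4*, *Dcx*, *Dpysl3* and *Basp1* had all 5 SGN ages above glial cells and HCs. The lowest SGN age overlapped with the next group for *Dcx*, *Dpysl3* and *Basp1*, and did not for the 3 stathmins. The share of all genes that lay apart from glial cells in this way was not computed. *Marcksl1* ran from P1 and E15.5 through glial cells, P8 and HCs to P14 and P30, so both reference groups lay above the oldest SGNs. *Gap43* had glial cells between P8 and P30 SGNs, with overlap on both sides, and P30 SGNs held 0.331 times the glial mean, a ratio that was 0.0879 without P30 replicate 1 and 0.826 without glial replicate 3. For *Stmn1* the ratio was 0.409, and 0.267 without P30 replicate 1. For *Stmn3* it was 37.1, and 92.8 without glial replicate 1.

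Genes related to the 10 were counted from 5 lists. Of 7 relatives of the 10 genes, 6 were tested, and 4 were called between E15.5 and P30, all lower at P30 (66.7% against 34.6% of all genes). *Marcks*, the larger sister of *Marcksl1*, fell by 6.55 on the log2 scale (SE 0.89, adjusted p = 2.60e-05), and the CRMP genes *Crmp1* and *Dpysl4* fell by 2.98 and 2.36. *Dpysl2*, which encodes CRMP2 and was picked after its values were seen, had 0.52 (SE 0.16, adjusted p = 0.0147) and measured 203 TPM ± 45.6 at E15.5 and 259 TPM ± 49.1 at P30 (SD, n = 3). *Marcks*, like *Marcksl1*, had a higher mean in glial cells (145 TPM ± 69.8) than in P30 SGNs (1.40 TPM ± 1.89, SD, n = 3), and the SGN mean was called lower than glial cells (-4.06, SE 0.32, adjusted p = 1.57e-09). *Crmp1* was called higher in SGNs than in glial cells (4.31) and in HCs (2.12).

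Among 18 other microtubule regulators of axons, 4 rose and 2 fell from E15.5 to P30, with a median of 0.25 on the log2 scale, and the 33.3% called was close to the 34.6% of all genes. *Map1a*, a microtubule-associated protein of mature neurons, rose by 4.72 (SE 0.24, adjusted p = 1.45e-09), from 29.0 TPM ± 1.16 to 703 TPM ± 181 (SD, n = 3). *Nav3*, a microtubule plus-end protein, fell by 2.96 and *Map7d2* rose by 2.59. *Map1b*, a protein of growing axons that was picked after its values were seen, had 0.72 (SE 0.12, adjusted p = 0.000170), below 2-fold, and kept a high level with 1083 TPM ± 240.1 at P30 (SD, n = 3). Against HCs 11 of the 18 were called, all higher in SGNs (61.1% against 26.8% of all genes), and against glial cells 7 were, all higher in SGNs (38.9% against 24.7%).

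Of 15 actin regulators of the growth cone, 2 rose and 4 fell between E15.5 and P30, or 40.0% against 34.6% of all genes. *Fscn1*, the actin-bundling fascin of filopodia, fell by 4.55 (SE 0.49, adjusted p = 2.47e-06), *Baiap2* fell by 3.08 and the cofilin kinase gene *Limk1* rose by 1.53. The median of this list was 0.07 on the log2 scale. Against HCs 7 of the 15 were called, all higher in SGNs (46.7% against 26.8% of all genes), and against glial cells 2 were higher and 1 was lower, a share below the 24.7% of all genes.

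Of 15 genes of growth cone signalling and polarity, 3 rose and 6 fell between E15.5 and P30, with a median of -0.97 on the log2 scale and 34.6% of all genes called. *Tmsb10*, which encodes an actin monomer-binding thymosin, fell by 3.99 (SE 0.51, adjusted p = 1.32e-05). A pair of membrane proteins of one family went opposite ways, with *Plppr3* at -3.70 and *Plppr4* at 5.07. Against HCs 8 were higher and 3 lower in SGNs (73.3% called against 26.8% of all genes), and against glial cells 6 were higher and 1 was lower (46.7% against 24.7%). *Cdk5r2*, an activator of the kinase CDK5, had 9.42 against HCs and 5.54 against glial cells.

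Of 13 genes linked to axon regeneration, 10 were tested between ages, and 1 rose and 3 fell from E15.5 to P30, or 40.0% against 34.6% of all genes. *Sox11*, a transcription factor of immature neurons, fell by 5.20 (SE 0.39, adjusted p = 6.02e-08), *Klf6* fell by 2.00 (SE 0.76, adjusted p = 0.0434), and *Klf9* rose by 3.60 (SE 0.45, adjusted p = 1.04e-05). *Sox11* was also called between E15.5 and P1 (-2.12, adjusted p = 0.000117), where none of the 10 growth cone genes was, with means of 199 TPM ± 106 and 57.1 TPM ± 18.2 (SD, n = 3). Against HCs, 2 of the 11 genes tested were called, both higher in SGNs (18.2% against 26.8% of all genes). Against glial cells, 1 gene was higher and 5 were lower in SGNs (54.5% against 24.7%), *Klf9* among the latter (-3.61).

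The genes whose pattern over the 15 SGN libraries was most like that of *Gap43*, *Stmn1* and *Stmn3* were found by Pearson's r of log2 CPM (prior count of 1) among 9349 genes, as a description over libraries that share ages and depth. For *Gap43* they were *Tubb2b* (r = 0.973), *Ablim3* (0.973), *Sgsm2* (0.971), *Tmsb10* (0.970) and *Stk32b* (0.969). For *Stmn1* they were *Gm11223* (r = 0.995), which shares sequence with it, *Nt5dc2* (0.990), *Gng2* (0.986) and *Bex1* (0.979). For *Stmn3* they were *Gm14760* (r = 0.970), the mitochondrial respiration gene *Cox5b* (0.970), the mitochondrial import gene *Tomm22* (0.965) and the ATP synthase genes *Atp5f1* (0.965) and *Atp5j* (0.964). *Stmn3* had a negative r with each of the other 9 growth cone genes, from -0.84 with *Dpysl3* to -0.31 with *Stmn2*, and *Gap43* had a positive r with the other 8, from 0.83 with *Stmn2* to 0.954 with *Dpysl5*.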

How the data were processed

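RNA was extracted from the collected cells with the PicoPure kit and amplified with the NuGEN Ovation V2 kit. The authors mapped reads with STAR 2.4.0i to mm10 and deposited raw counts per gene of the GENCODE vM15 annotation, made with featureCounts. The settings for strand, read pairs and reads that map to several places are not given in the sources used here. Even counts made up a median of 67.9% of the counts from 1 to 20, so 1 fragment may often add more than 1 count.

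TPM was computed from the deposited counts and gene lengths. Symbols and positions came from GENCODE M21 (GRCm38), and upstream sequences from RefSeq (GRCm38.p6). Counts were tested with limma 3.58.1 (voom, TMM factors from edgeR 4.0.16, R 4.3.3), and a gene entered the test if some group had a CPM over 1 in each replicate. Ages were compared in 1 fit of the 15 SGN libraries, and cell types in 1 fit of all 21. Tests were two-sided, p-values were adjusted by Benjamini-Hochberg over all genes tested, and calls needed an adjusted p under 0.05 and a 2-fold change between ages, or an adjusted p under 0.01 and a 4-fold change between cell types. Values were read and drawn in Python 3.11.15 with pandas 2.3.3, numpy 2.4.6 and matplotlib 3.10.9.

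The 10 genes, the 5 lists of related genes and the markers were chosen with earlier results of these data known. The 10 genes were always named. From each list, up to 3 called genes with the largest change between E15.5 and P30, or between SGNs and HCs or glial cells, were named, and for likeness the 5 genes with the highest r, of which 1 is not reported here. Alternatives were edgeR's quasi-likelihood test, DESeq2 1.42.0, DESeq2-type size factors (RLE), library size alone, no mitochondrial genes, no limit on low counts, a CPM over 10, sample quality weights, a replicate block, fits of other sets of libraries, and leaving out each library.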

Additional observations from a re-analysis of the deposited data

How the results depend on the processing

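Of 1150 fold changes of the 10 genes recomputed under the other settings, 1098 kept their direction and their side of the threshold, and of 900 recomputed without 1 library, 848 did. The number of the 10 genes called between P8 and P14 (4) was 7 with sample quality weights and 2 to 3 without 1 library. Between E15.5 and P1 it was 0 to 1 without 1 library, and between P14 and P30 it was 1 with DESeq2 and 1 with sample quality weights. DESeq2 gave no adjusted p for *Dcx* and *Basp1* in the 5 comparisons of cell types, so those genes stayed out of its counts. The cause of these changes was not tested.

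Scaling by library size alone moved the median of all genes from -0.01 to -0.49 between E15.5 and P30 and from 0.02 to -0.54 between SGNs and HCs, and *Stmn3* was still called higher at P30 (1.05, adjusted p = 0.00166 by limma-voom). The percentage of all genes called ranged, over all settings, from 3.00% to 11.5% (E15.5 to P1), 3.01% to 11.2% (P8 against P1), 0.185% to 1.45% (P14 against P8), 0.00662% to 0.728% (P30 against P14), 15.8% to 40.9% (E15.5 to P30), 8.44% to 26.8% (P1 to P30), 16.5% to 31.5% (SGN mean to HCs), 11.5% to 27.4% (SGN mean to glial cells), 10.8% to 24.5% (P8 SGNs to glial cells), 12.8% to 28.2% (P14 SGNs to HCs) and 12.7% to 26.2% (HCs to glial cells).

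Signs turned only for values that were not called. Between E15.5 and P1, *Basp1* had -0.087 with library size alone. Between P14 and P30, *Stmn1* had 0.0059 with RLE, 0.0013 with library size alone and 0.025 with all 21 libraries, *Stmn3* had 0.031 with quality weights and 0.011 with all 21 libraries, *Dpysl3* had -0.0038 with edgeR, -0.0030 with library size alone and -0.069 with quality weights, and *Dpysl5* had -0.011 with edgeR and -0.0061 with DESeq2. Between P8 SGNs and glial cells, *Stmn1* had 0.0012 with edgeR, 0.082 with no limit on low counts and 0.052 with only the compared groups. Between HCs and glial cells, *Stmn3* had 0.17 with library size alone. Without 1 library, ranges that crossed 0 were -0.14 to 0.020 (*Dpysl5*) and -0.0020 to 0.16 (*Basp1*) from E15.5 to P1, -0.17 to 0.011 (*Stmn2*) for P8 against P1, and -0.065 to 0.49 (*Stmn3*) for P14 against P8. For P30 against P14 they were -0.63 to 1.49 (*Gap43*), -0.046 to 0.45 (*Dcx*), -0.58 to 0.35 (*Stmn1*), -0.24 to 0.041 (*Stmn2*), -0.33 to 0.23 (*Stmn3*), -0.13 to 0.14 (*Dpysl3*) and -0.47 to 0.55 (*Dpysl5*). They were -0.17 to 0.14 (*Stmn1*) for P8 SGNs against glial cells and -0.86 to 0.67 (*Stmn3*) for HCs against glial cells.

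The labels do not say that a replicate number marks a shared litter or day. All 3 correlations of same-numbered samples were over 0.1 for P8 and P30 SGNs (0.389, 0.180 and 0.154), which were not compared, and for no pair of groups that was compared (P1 and P8: 0.366, 0.064 and 0.162), so the samples were treated as sharing only a number. With the replicate number as a block, limma-voom called 5 of the 10 genes between P8 and P14 and 8 between P14 SGNs and HCs, in both cases with *Gap43* added (-3.38, adjusted p = 0.0413, and 6.48, adjusted p = 0.00791), and the uncalled *Stmn1* value for P8 SGNs against glial cells became 0.0018. The block changed no other call of the 10 genes. Each group held 3 libraries, and where a gene had a count of 0, a level of up to 3 counts in that library could not be told from absence.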
